A study of Mus musculus with 2 samples.

Results

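The 10 genes of the extracellular matrix and of mesenchymal cells described here (Col3a1, Col1a1, Col1a2, Dcn, Lum, Prrx1, Zeb2, Bgn, Sparc and Fbn1) were measured by droplet single-cell RNA-seq of sorted mouse medullary thymic epithelial cells (mTEC). They were taken by symbol, and all 10 were present among the 31053 genes of both matrices; the plots call them members. They were selected on their UMI counts in these same cells, as genes found together with Epcam in a subset of them, so their levels there are a description and carry no test. A single library was labelled Foxn1-Cre(+) Ikaros fl/fl and another Foxn1-Cre(+) Ikaros +/fl, and both were sorted as EPCAM+ Ly51-. Foxn1-Cre is active in thymic epithelium, and the floxed gene, Ikzf1, encodes the zinc-finger transcription factor Ikaros. Both libraries carry the Cre transgene and at least 1 floxed allele, so neither is free of Cre, and the labels give no age, sex, number of mice or deleted exons. The deposited file names give the genotypes the other way round from the labels, and "fl/fl" and "+/fl" below are the libraries so labelled. With 1 library per genotype there is no test of genotype and no replicate check, and 95% intervals (exact Poisson for summed counts, Clopper-Pearson for shares) cover counting error only.

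Type I and type III collagens form the fibrils of connective tissue, and decorin, lumican and biglycan are small proteoglycans that coat those fibrils. Fibroblasts, pericytes and smooth muscle make most of this matrix in the thymus, in the capsule, the septa and around vessels. Epithelial cells mostly lay down basement membrane, and are joined by E-cadherin, claudins and EpCAM. In an epithelial to mesenchymal transition, repressors such as Zeb2 bind E-boxes and lower junction genes while matrix and Vim transcripts go up.

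After filters and removal of likely doublets, 7669 fl/fl cells and 4891 +/fl cells were kept, with a median of 8187 and 10731 UMIs (unique molecular identifiers, each a counted transcript). Ikzf1 had 37.7 CPM (UMIs of a gene summed over cells and scaled to a fixed total) in the fl/fl library and 64.5 CPM in the +/fl library, and the labels do not say whether the deleted part is counted by a 3' tag, so this checks little. Xist stood at 0.902 CPM in the fl/fl library and 1317 CPM in the +/fl library, while Ddx3y, on the Y chromosome, had 64.5 CPM in the fl/fl library and 0 UMIs in the +/fl library, so genotype and sex of the mice cannot be told apart. The 2 libraries shared 25 barcodes, 10 of them among the kept cells.

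The cells fell into 21 clusters, drawn with the 10 genes left out of the clustering so that the genes themselves could not make a cluster. A few places held most of the matrix transcripts. Cluster 7, with 309 fl/fl cells (4.03%) and 423 +/fl cells (8.65%), was led by Ccl11, Mgp, Gas1, Fxyd7, Acta2 and Tagln. Of these, Gas1, Acta2 and Tagln also led cluster 6 and immature mTEC-like cluster 3. Cluster 7 met all 6 immature mTEC markers (Krt5, Krt14, Ccl21a, Pdpn, Trp63 and Itgb4). Its 10 leading genes held more markers of another list, so it is called by its number. Cluster 7 was taken as the unnamed cluster with the highest summed level of the 10 genes over both libraries. Epcam, the adhesion protein used for the sort, was found in 96.1% of its fl/fl cells and 96.9% of its +/fl cells, at 1187 and 1014 CPM. The fibroblast-like cluster held 6 fl/fl and 13 +/fl cells and carried 11 of 11 fibroblast markers, among them Pdgfra, Dpt and Cd248. A mesothelial-like cluster of 12 fl/fl and 19 +/fl cells carried Upk3b, a marker of mesothelium, together with Krt19. A heat map of the 10 genes over all clusters shows the difference in scale between these places.

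**Figure D1:**
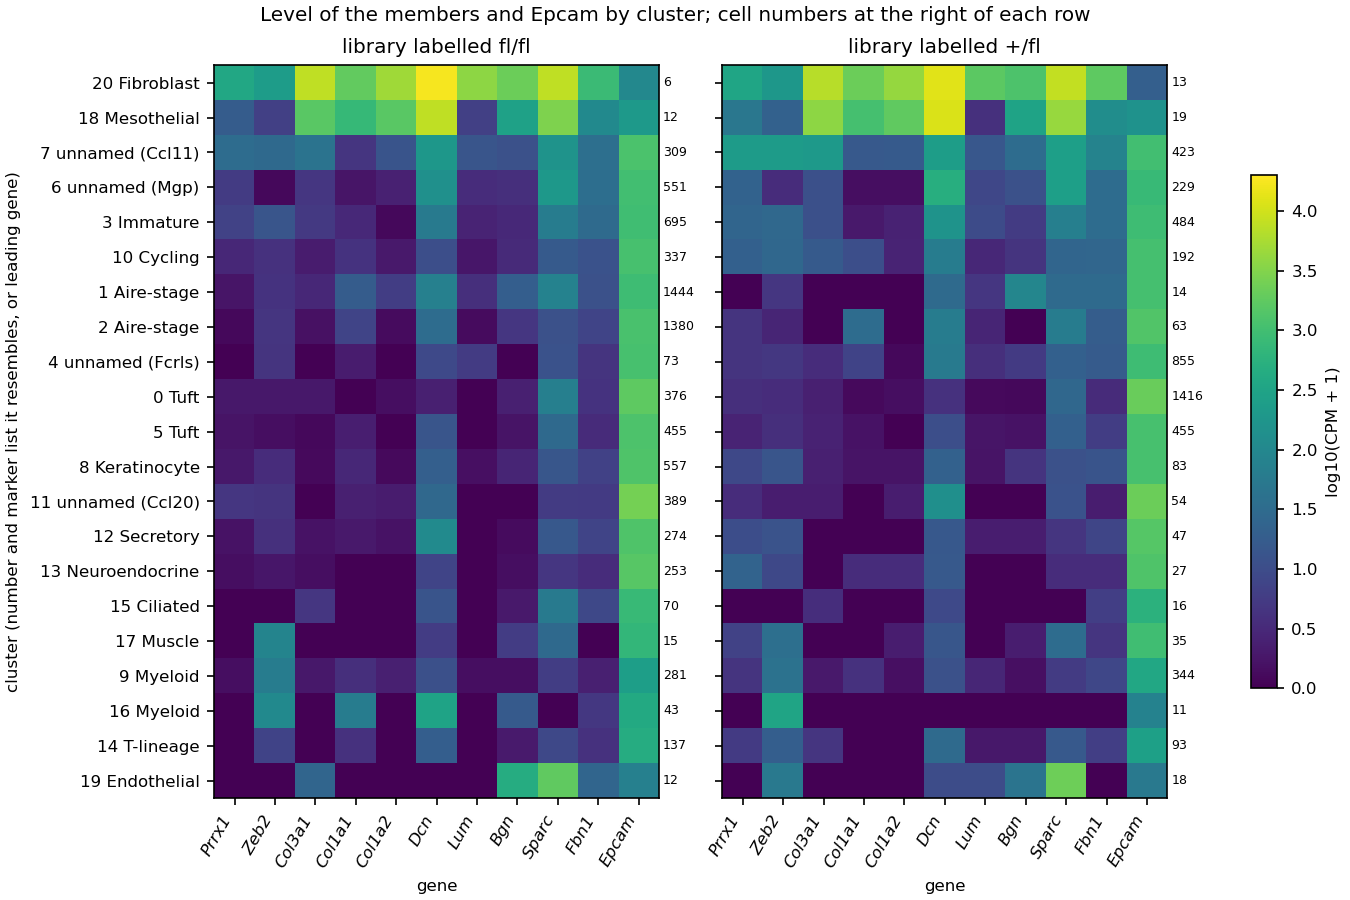
Level of each of the 10 genes and of Epcam (colour, log10 of CPM + 1) in every cluster of the fl/fl library (left) and the +/fl library (right), clusters given with their number and the marker list they resemble or their leading gene. The fibroblast-like cluster is high for all 10 genes and the mesothelial-like cluster for the collagens, Dcn and Sparc, and cluster 7 is the epithelial cluster with the highest Prrx1 and Zeb2 in the +/fl library.

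The transcription factors stood apart from the structural genes. Positions are given in the GRCm38 annotation (GENCODE M21), matched by Ensembl ID, since the build used for counting is not given in the sources used here. Prrx1 (chr1:163245119-163313710, minus strand), a paired-type homeobox factor of embryonic mesenchyme, had 32.3 CPM (25.2 to 40.8, 70 UMIs) in fl/fl cells of cluster 7 and 230.4 CPM (217 to 244, 1091 UMIs) in its +/fl cells. Zeb2 (chr2:44983632-45117395, minus strand), a zinc-finger repressor that binds E-boxes in the E-cadherin promoter, had 29.1 CPM (22.3 to 37.2) in fl/fl cells of the cluster and 225 CPM (212 to 239) in its +/fl cells. For both genes the intervals of the libraries lay far apart. In the fibroblast-like cluster Prrx1 had 376 CPM in the fl/fl library and 336 CPM in the +/fl library, and Zeb2 had 239 and 187 CPM. Cluster 7 of both libraries together therefore stood at 48.5% of the fibroblast-like level for Prrx1 and 81.4% for Zeb2. It held 34.5% of all Prrx1 UMIs of the fl/fl library and 67.8% of those of the +/fl library, against 10.8% and 3.4% in the fibroblast-like cluster. Zeb2 was also found outside epithelium and fibroblasts, at 62.8 CPM in fl/fl cells and 40.8 CPM in +/fl cells of myeloid-like cluster 9, which held 26.8% and 9.56% of its UMIs.

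The fibrillar collagens had another distribution. Col3a1 (chr1:45311538-45349706, plus strand), the chain of type III collagen, had 42.9 CPM (34.6 to 52.6, 93 UMIs) in fl/fl cells of cluster 7 and 212 CPM (199 to 226, 1005 UMIs) in its +/fl cells, against 7834 and 6796 CPM in the fibroblast-like cluster. Col1a2 (chr6:4504814-4541544, plus strand), a chain of type I collagen, had 12 CPM in fl/fl cells and 15.2 CPM in +/fl cells of cluster 7, against 4926 and 4244 CPM in the fibroblast-like cluster. Col1a1 (chr11:94936224-94953042, plus strand), its partner chain, had 3.69 and 15 CPM in cluster 7, against 1882 and 2141 CPM in the fibroblast-like cluster. Relative to the fibroblast-like level, cluster 7 thus had 2.25% of Col3a1, 0.552% of Col1a1 and 0.321% of Col1a2. Mesothelial-like cells made collagens at a level closer to fibroblast-like cells, with 42.0% of their Col3a1, 46.6% of their Col1a1 and 38.6% of their Col1a2. Even so, 9 of the 10 genes were lower in them by at least 2-fold, where 8.71% of 2399 genes were lower and 14.4% higher. These 31 cells held 38.5% of the fl/fl library's Col1a2 UMIs and 43.4% of those of the +/fl library, and the 19 fibroblast-like cells held 38.9% and 49.0%. Most Col1a2 thus came from a few non-epithelial cells in both libraries.

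Among the proteoglycans, Dcn (decorin) was the one most widely found in epithelium. It had 185 CPM in fl/fl cells and 249 CPM in +/fl cells of cluster 7, and was detected in 35.3% and 48.9% of them. In cluster 6, an unnamed epithelial cluster led by Mgp and Tagln, Dcn had 141 CPM in fl/fl cells and 497 CPM in +/fl cells. The gene of Lum (lumican, chr10:97565128-97572703) lies beside that of Dcn (chr10:97479609-97518143), both on the plus strand, but the pair had different levels. Lum had 12.5 CPM in fl/fl cells and 13.5 CPM in +/fl cells of cluster 7, and the fibroblast-like cluster held 62.6% of its fl/fl UMIs and 55.6% of its +/fl UMIs. The pair also parted in mesothelial-like cells, which stood at 71.9% of the fibroblast-like level for Dcn and 0.178% for Lum. Bgn (biglycan, chrX:73483602-73495933, plus strand) had 10.6 CPM in fl/fl cells and 32.5 CPM in +/fl cells of cluster 7. The place that held most of its fl/fl UMIs was Aire-stage-like cluster 1, with 55.7% of them at 18.5 CPM.

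Sparc (chr11:55394500-55423183, minus strand), a collagen-binding matricellular protein, and Fbn1 (chr2:125300594-125507993, minus strand), the fibrillin that forms microfibrils, were spread over several clusters. Sparc had 161 CPM in fl/fl cells and 271 CPM in +/fl cells of cluster 7, and 195 and 264 CPM in cluster 6. It was also high in the endothelial-like cluster, at 1806 CPM in fl/fl cells and 2230.3 CPM in +/fl cells, where Dcn and the type I collagens had at most 1 UMI. Fbn1 had 36.4 CPM in fl/fl cells and 81.7 CPM in +/fl cells of cluster 7, which is 4.59% of the fibroblast-like level for both libraries together. Col1a1 shared with Bgn its large fl/fl share in Aire-stage-like cluster 1, at 17.1 CPM (15.4 to 18.9) in 6.02% of the cells and 47.7% of the library's Col1a1 UMIs. That cluster held only 14 +/fl cells, so no comparison of genotype can be made in it.

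The promoters shown are those of the factors that cluster 7 had nearest to the fibroblast-like level (Prrx1, Zeb2) and of collagens that it had far below (Col3a1, Col1a2), and that of Epcam because it was found in the same cells. Each is the run of 250 bases before a RefSeq start (GRCm38.p6) on the gene's own strand, from 5′ to 3′. Capitals mark CACCTG, the E-box letters bound by Zeb-family factors, CCAAT and TATAAA, each searched on both strands.
Prrx1: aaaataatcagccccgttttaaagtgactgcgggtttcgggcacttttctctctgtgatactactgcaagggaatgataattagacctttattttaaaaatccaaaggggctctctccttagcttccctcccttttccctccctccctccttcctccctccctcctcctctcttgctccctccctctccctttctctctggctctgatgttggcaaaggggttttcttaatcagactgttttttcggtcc
Zeb2: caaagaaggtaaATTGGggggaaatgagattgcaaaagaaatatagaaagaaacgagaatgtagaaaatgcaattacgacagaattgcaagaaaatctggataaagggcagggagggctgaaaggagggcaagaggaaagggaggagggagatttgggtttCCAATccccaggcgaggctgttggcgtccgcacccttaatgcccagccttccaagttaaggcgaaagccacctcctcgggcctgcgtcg
Col3a1: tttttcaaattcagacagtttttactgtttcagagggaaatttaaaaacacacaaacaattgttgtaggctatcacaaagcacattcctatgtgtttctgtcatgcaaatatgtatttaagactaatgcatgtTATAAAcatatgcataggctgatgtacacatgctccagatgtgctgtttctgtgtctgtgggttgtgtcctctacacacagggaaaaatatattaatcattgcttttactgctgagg
Col1a2: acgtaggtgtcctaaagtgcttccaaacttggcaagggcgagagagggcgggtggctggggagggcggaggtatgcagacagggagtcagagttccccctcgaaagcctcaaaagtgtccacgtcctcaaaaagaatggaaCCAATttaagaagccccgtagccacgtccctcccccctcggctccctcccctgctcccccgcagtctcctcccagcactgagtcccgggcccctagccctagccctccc
Epcam: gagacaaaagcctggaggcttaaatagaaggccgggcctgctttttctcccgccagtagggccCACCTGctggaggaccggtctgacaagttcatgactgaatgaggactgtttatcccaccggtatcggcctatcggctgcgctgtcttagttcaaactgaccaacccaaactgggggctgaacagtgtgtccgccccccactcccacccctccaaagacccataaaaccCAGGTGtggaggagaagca
The windows lie at chr1:163313651-163313900 on the minus strand for Prrx1, chr2:45117443-45117692 on the minus strand for Zeb2 (the first of 4 starts), chr1:45311288-45311537 on the plus strand for Col3a1, chr6:4505368-4505617 on the plus strand for Col1a2 and chr17:87635729-87635978 on the plus strand for Epcam. Among the windows shown, RefSeq and GENCODE starts differ for Prrx1, Zeb2 and Col1a2. Of the 10 genes, 7 matched the RefSeq promoter table. CACCTG was found in none of the windows of those 7 genes and 2 times in the Epcam window, and 17.2% of all 32851 windows of this length hold it. CCAAT, the box bound by NF-Y, occurred 2 times in the Zeb2 window and 1 time in the Col1a2 window, against 33.8% of all windows. The Col3a1 window held 1 TATAAA, which 12.4% of windows hold, and had no CpG at a GC content of 35.2%, while the Col1a2 window had 11 CpG at 62.0%. A match is a run of letters only, and no match says nothing of a factor's binding.

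Epcam and the matrix genes were found in the same cells, in numbers that depend on the depth of a cell. At least 3 of the 10 genes were found in 214 fl/fl cells (2.79%, 2.43 to 3.18) and 490 +/fl cells (10.0%, 9.19 to 10.9), and 95.3% and 94.5% of these also had Epcam. Thinned to 2000 UMIs per cell, which left out 797 fl/fl cells and 324 +/fl cells that were shallower, the cells with at least 3 genes were 49 in the fl/fl library (0.713%, 0.528 to 0.942) and 146 in the +/fl library (3.20%, 2.71 to 3.75). Epcam was then found in 40.8% of the fl/fl and 50% of the +/fl cells with at least 3 genes. Clusters of other cell types give a comparison for such shares. After the same thinning Epcam was found in 28.5% of fl/fl and 17.9% of +/fl T-lineage-like cells (median 3796 and 5837 UMIs before thinning). In myeloid-like cluster 9 it was found in 18.2% and 28.1% of cells (6826 and 9904 UMIs). It was found in none of the 6 fl/fl and 13 +/fl fibroblast-like cells, which allows shares of up to 45.9% and 24.7%. In mesothelial-like cells the shares were 16.7% in fl/fl and 26.3% in +/fl. The source of Epcam in these clusters, free RNA or other, was not tested. Over all cells of cluster 7 the thinned Epcam share was 83.3% in the fl/fl library and 75.7% in the +/fl library. Among its thinned cells with at least 3 of the genes it was 56.2% of 16 fl/fl cells (29.9 to 80.2) and 51.2% of 80 +/fl cells (39.8 to 62.6). Among those with at least 5 genes it was 1 of 2 fl/fl cells and 25% of 28 +/fl cells (10.7 to 44.9). That +/fl share lay between those of T-lineage-like cells and of myeloid-like cluster 9 in the same library. The cells are too few at this depth to place it above or below the other cell types. Without thinning, Epcam was found in 100% of 9 fl/fl and 92.8% of 83 +/fl cluster 7 cells with at least 5 genes. Over all cells of myeloid-like cluster 9 the shares without thinning were 40.2% and 54.4%. Of its 10 +/fl cells with at least 3 genes, 90% had Epcam, and of 7 such +/fl T-lineage-like cells 85.7%. All mesothelial-like and fibroblast-like cells had at least 5 genes. Without thinning, Epcam was found in 83.3% (fl/fl) and 84.2% (+/fl) of the mesothelial-like ones, and in 33.3% and 23.1% of the fibroblast-like ones.

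**Figure D2:**
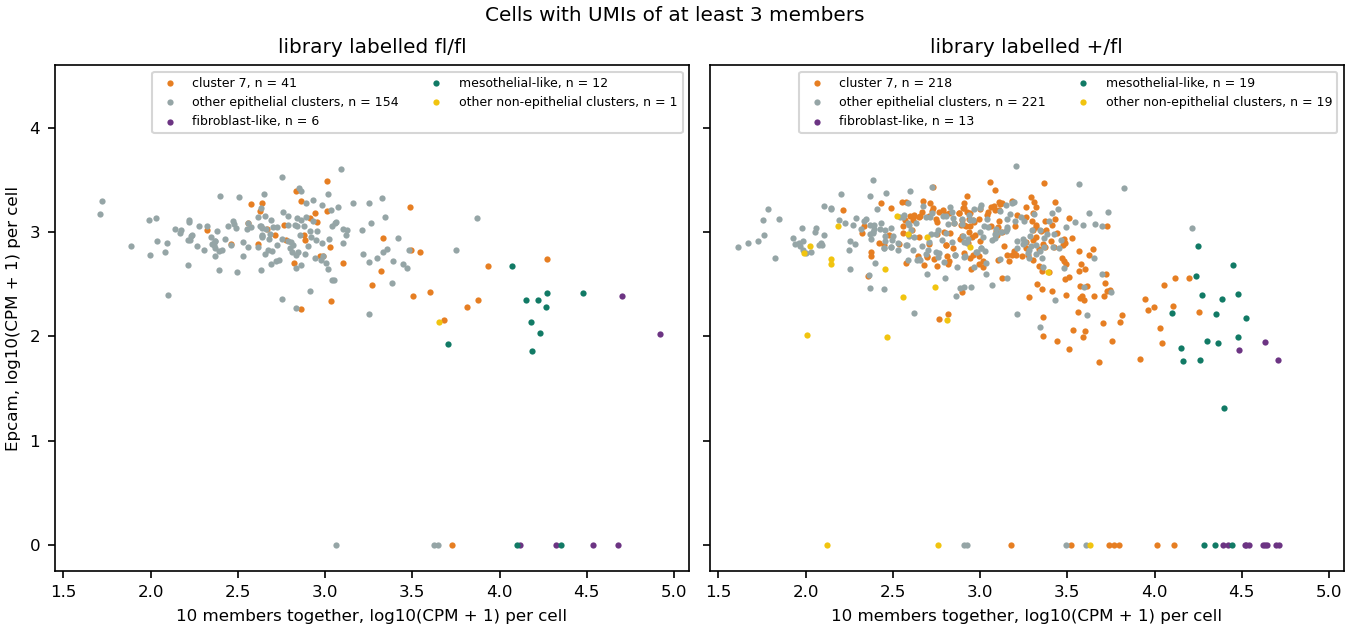
Epcam (vertical axis, log10 of CPM + 1) against the summed 10 genes (horizontal axis, log10 of CPM + 1) in each kept cell with at least 3 of the genes, fl/fl library on the left and +/fl library on the right, coloured by place. Fibroblast-like and mesothelial-like cells lie at the right end; cluster 7 and other epithelial cells lie mostly to the left of them, most with Epcam above 0 (95.3% of the fl/fl and 94.5% of the +/fl cells drawn).

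The thinned Epcam share differed from gene to gene. Of cells with Col1a2, 51.3% of 39 fl/fl cells and 25.5% of 47 +/fl cells had Epcam, against 77.3% and 76.9% of cells without it. Cells with Col3a1 had Epcam in 50% (fl/fl) and 40.2% (+/fl), against 77.3% and 77.1% of cells without it. Dcn showed almost no such gap, with Epcam in 76.6% of fl/fl and 72.7% of +/fl cells with Dcn, against 77.2% and 76.7% without. Prrx1 lay between them, at 65.2% and 65.4% against 77.2% and 76.8%. These shares are over all kept cells and so mix cell types.

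Within epithelial clusters, cells with Prrx1 held Zeb2 and Col3a1 more often than cells without it. The genes were chosen as found together in a subset of these cells, so this overlap carries no weight as support. The shares also pool clusters that differ in Prrx1. After thinning it was found in 4.58% of fl/fl and 27.0% of +/fl cells of cluster 7. In the other epithelial clusters it was found in 0.421% and 1.34%. The part of cluster 7 in the overlap was not tested. Of the 164 thinned +/fl epithelial cells with Prrx1, 45.1% (37.4 to 53.1) also had Zeb2, against 2.39% of those without Prrx1, and 20.7% had Col3a1, against 0.80%. Of the 40 fl/fl epithelial cells with Prrx1, 17.5% (7.34 to 32.8) also had Zeb2, against 0.699% of those without Prrx1, and 5% had Col3a1, against 0.404%. Col1a2 was found in 5.49% of the +/fl cells with Prrx1 and in none of the fl/fl ones, which allows up to 8.81%. Col1a1 was an exception in the fl/fl library: of 50 epithelial cells with it, 4% had Dcn, against 6.70% of those without, and none had Prrx1, which allows up to 7.11%.

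Cells with 5 or more of the genes were split from fibroblasts next. There were 32 such cells (0.417%) in the fl/fl library and 145 (2.96%) in the +/fl library. In the fl/fl library 9 lay in cluster 7, 5 in other epithelial clusters, 6 in the fibroblast-like and 12 in the mesothelial-like cluster, and in the +/fl library these numbers were 83, 30, 13 and 19. All fibroblast-like and all mesothelial-like cells were among them, and no myeloid-like, T-lineage-like or endothelial-like cell was. The cut is a point on a continuous count: 25 fl/fl and 106 +/fl cells had 4 of the genes, and 7 fl/fl and 52 +/fl cells had 5. Cells with 5 or more genes and no Epcam numbered 6 in the fl/fl library, 4 of them fibroblast-like and 2 mesothelial-like, and 21 in the +/fl library, of which 10 were fibroblast-like, 3 mesothelial-like, 6 in cluster 7 and 2 in cluster 3 (immature mTEC-like).

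The 14 fibroblast-like cells without Epcam, 4 fl/fl and 10 +/fl, carried fibroblast genes. Pdgfra, a receptor of fibroblast lineages, had 248 CPM in the fl/fl and 211 CPM in the +/fl ones, and Mfap5, a microfibril protein, 425 and 4827 CPM. Col1a2 had 1805 CPM in the fl/fl and 3991 CPM in the +/fl ones. Stmn2 and Acta2 had no UMI in them. The 8 epithelial-cluster cells without Epcam, all +/fl, had other genes. Pdgfra, Mfap5, Pi16 and Lum had no UMI, Col1a2 stood at 184 CPM, and Prrx1 (854 CPM) and Zeb2 (1389 CPM) were found in all 8. All 8 also had Ccl21a, a chemokine of immature mTEC, between 3551 and 28785 CPM, and 7 had Krt8, an epithelial keratin. Ccl21a has near-identical gene copies, so its counts are uncertain, and it was at 319 CPM in the fl/fl and 50.6 CPM in the +/fl fibroblast-like cells without Epcam. Both groups were set by cluster. The fibroblast-like cluster was named by markers such as Pdgfra and led by Pi16 and Mfap5. The clusters of the 8 cells met immature mTEC markers such as Ccl21a. The contrast in these genes was therefore largely fixed by the clustering and carries no weight as support.

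Cluster 7 cells with 5 to 10 of the genes had, with the libraries summed, both factors above the fibroblast-like level and the matrix genes below it, while in fl/fl alone Prrx1 was below it. In the 9 fl/fl cells Prrx1 had 191 CPM, against 376 CPM in fl/fl fibroblast-like cells. Zeb2 had 587 CPM, Col3a1 1051 CPM and Col1a2 328 CPM in the same 9 cells. In the 83 +/fl cells Prrx1 had 616 CPM and was found in 82 cells, Zeb2 had 556 CPM in 78 cells, Col3a1 had 959 CPM in 55 cells, and Col1a2 had 69.1 CPM in 13 cells. Since the cells were chosen for these genes, high values are fixed by the choice. Over all of cluster 7, with the libraries summed, Prrx1 stood at 48.5% and Zeb2 at 81.4% of the fibroblast-like level. In that sum both lay above it only in the chosen cells. In the +/fl library alone, Zeb2 had 225 CPM over all of cluster 7. That was above the +/fl fibroblast-like level given earlier, which rests on 13 cells. The differences among the genes in the chosen cells are what the plot of levels relative to fibroblasts shows. For both libraries together, of which the +/fl cells are 83 of 92, Prrx1 stood at 169% (157 to 183) of the fibroblast-like level and Zeb2 at 278% (257 to 301). Fbn1 stood at 15.6%, Col3a1 at 13.6%, Sparc at 11.3%, Bgn at 8.51%, Dcn at 4.18%, Col1a1 at 3.29%, Lum at 2.90% and Col1a2 at 1.95% (1.58 to 2.38). By at least 2-fold, Zeb2 was higher and 8 of the 10 genes lower than in fibroblast-like cells, where 16.1% of 3670 genes were higher and 13.1% lower; the cells were chosen on these genes, so nothing is read from that count. Of the 457 UMIs of the 10 genes in the 9 fl/fl cells, 203 came from a single cell of 23575 UMIs that had all 10 genes, Pdgfra, 467 CPM of Epcam and only 84.8 CPM of Ccl21a. Without it the other 8 fl/fl cells had 242 CPM of Prrx1, 845 CPM of Zeb2, 1208 CPM of Col3a1 and 121 CPM of Col1a2, and Pdgfra had no UMI.

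**Figure D3:**
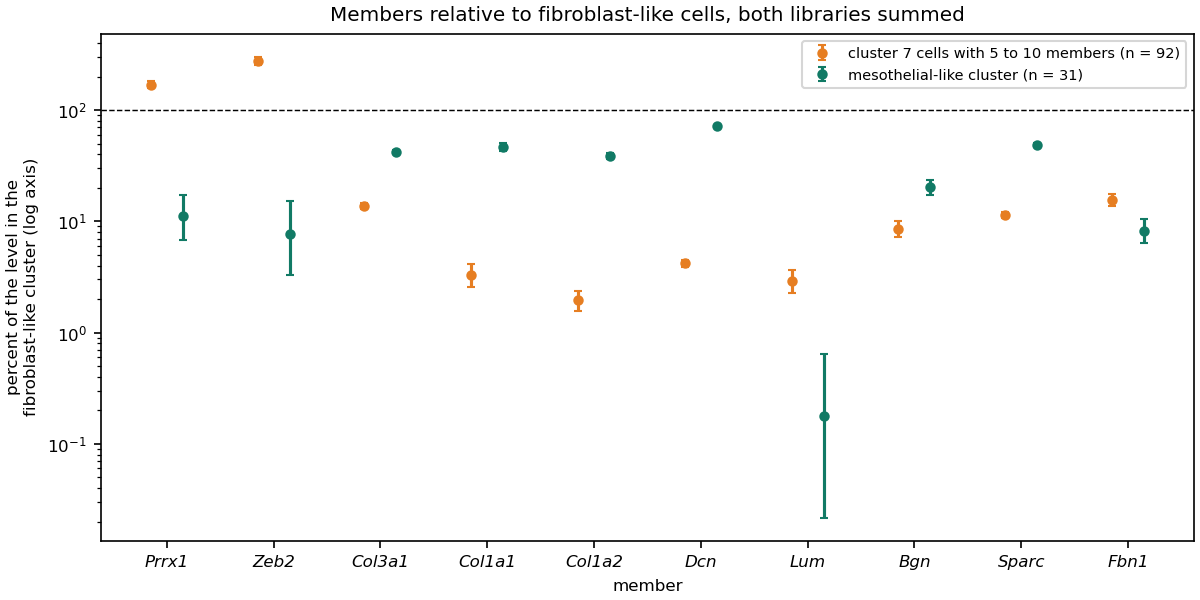
Level of each of the 10 genes as a percent of its level in the fibroblast-like cluster (log axis, both libraries summed), for the 92 cluster 7 cells with 5 to 10 of the genes and for the 31 mesothelial-like cells, with 95% counting intervals as bars. Prrx1 and Zeb2 reach 169% and 278% in the cluster 7 cells with 5 to 10 genes while the other 8 genes stay between 1.95% and 15.6%, and in mesothelial-like cells those 2 factors, Fbn1 and Lum are the lowest. The cluster 7 cells were chosen on these genes, which raises the levels drawn for them.

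The ratio between genes within a cell group gives the same contrast without a total. For every 100 Col1a2 UMIs there were 269 Prrx1 UMIs in fl/fl and 1515 in +/fl cells of cluster 7, against 7.64 and 7.92 in the fibroblast-like cluster and 1.05 and 2.82 in the mesothelial-like cluster. Prrx1 thus outnumbered Col1a2 in cluster 7 and was far less abundant than it in the fibroblast-like and mesothelial-like clusters. The fl/fl value of 269 rests on 26 Col1a2 UMIs, most of them from the single deep cell described above. For every 100 Col3a1 UMIs there were 75.3 Prrx1 UMIs in fl/fl and 109 in +/fl cells of cluster 7. The same ratio was 4.80 and 4.95 in the fibroblast-like cluster and 1.05 and 1.35 in the mesothelial-like cluster. The doublet score had a median of 0.0306 in the cluster 7 cells with 5 to 10 genes, 0.0207 in those with none, and 0.0685 in the fibroblast-like cluster. The part of free RNA in the few Col1a2 and Lum UMIs of cluster 7 was not tested.

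Against fibroblast-like cells, cluster 7 differed in matrix, epithelial and pericyte genes. Of the 10 genes, 9 were lower in it by at least 2-fold, where 15.8% of 9282 genes were lower and 22.6% higher (median of the 10 genes -5.63 on the log2 scale). Of the fibroblast markers, some of which also stand in the collagen lists, 11 of 11 were lower (median -5.92), which the naming of the fibroblast-like cluster by these markers had fixed. Among genes outside the 10 with at least 50 CPM on either side, Mfap5 and Pi16 had the lowest ratios. Mfap5 had 0.145 CPM (1 UMI) in cluster 7 against 3669 CPM, and Pi16 0.290 CPM (2 UMIs) against 3139 CPM. Both were named for that rank and led the fibroblast-like cluster, so they carry no weight as support. Mfap5 also stands in the elastic-fibre list. Other interstitial collagens were lower in 9 of 10 cases (median -4.26) and elastic-fibre genes in 11 of 12 (median -5.38), and enzymes of collagen processing in 11 of 13 (median -2.73). Basement-membrane genes were mixed, with 9 lower and 4 higher of 13. Pericyte and smooth muscle genes, a list that holds Acta2, Tagln and Rgs5, were higher in 6 of 6 cases (median 4.27), junction and keratin genes of epithelium in 10 of 12 (median 3.41), and immature mTEC markers in 5 of 6 (median 4.79). Stmn2, a microtubule regulator best known from neurons, had 651 CPM in cluster 7 and no UMI in the fibroblast-like cluster.

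Inside cluster 7, other genes differed between the cells with 5 to 10 of the genes and the cells with none. Vim, the intermediate filament of mesenchymal cells, had 846 CPM in fl/fl and 1733 CPM in +/fl cells with 5 to 10 genes, against 173 and 163 CPM in cells with none. Krt5, a basal keratin, had 287 CPM in fl/fl and 1428 CPM in +/fl cells with 5 to 10 genes, against 2006 and 4460 CPM. Krt14, its partner, had 27.3 and 753 CPM, against 2368 and 3069 CPM. Epcam itself was lower but present, at 464 CPM in fl/fl and 714 CPM in +/fl cells with 5 to 10 genes, against 1274 and 1072 CPM in cells with none. Ccl21a had 2771 CPM in fl/fl and 13077 CPM in +/fl cells with 5 to 10 genes, against 12771 and 16275 CPM. Without the deepest fl/fl cell the fl/fl values were 4046 CPM for Ccl21a, 423 CPM for Krt5, 40.3 CPM for Krt14, 463 CPM for Epcam and 705 CPM for Vim. In cells of myeloid-like cluster 9 Epcam stood at 259 CPM in fl/fl and 372 CPM in +/fl. Cluster 7 cells with 3 or 4 genes were nearer to those with none for Epcam (1164 CPM in fl/fl, 1122 CPM in +/fl) and Krt14 (2289 and 2568 CPM). The fl/fl cells with 5 to 10 genes were 9 in number with a median of 6272 UMIs, and the +/fl ones 83 with a median of 11260. Depth moved with the split, with a median of 5404 UMIs in fl/fl and 8058 UMIs in +/fl cells with none of the genes, and its part in the result was not tested.

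**Figure D4:**
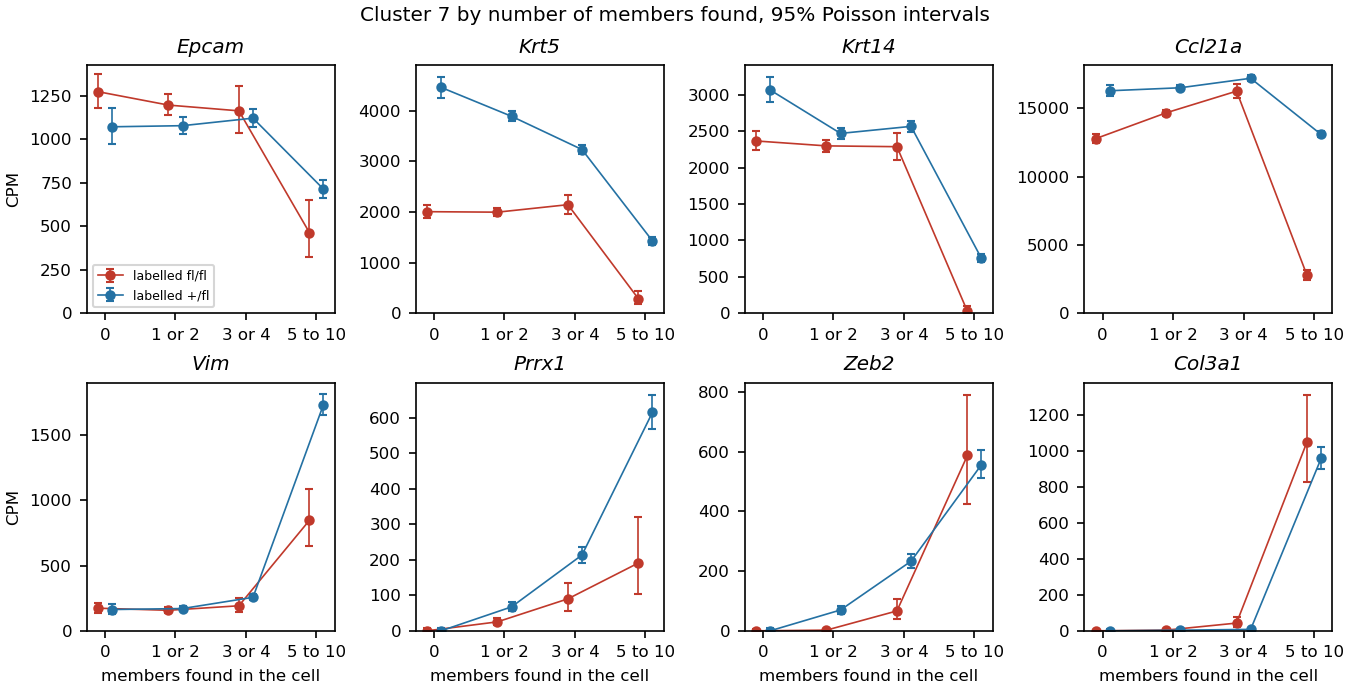
Level (CPM, vertical axis, with 95% Poisson intervals) of 8 genes in cluster 7 cells split by how many of the 10 genes were found in the cell (horizontal axis), fl/fl library in red and +/fl library in blue. Epcam, Krt5, Krt14 and Ccl21a are lowest, and Vim, Prrx1, Zeb2 and Col3a1 highest, in the cells with 5 to 10 genes, the last 3 of them being among the genes counted.

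The same split counted over gene lists, with both libraries summed in unequal mix (9 fl/fl and 83 +/fl cells with 5 to 10 genes, 93 and 46 with none), set 6.46% of 4970 genes higher and 5.94% lower by at least 2-fold. Only genes with at least 50 UMIs over both groups were counted, so a gene could pass through the group where it was high, and the counts carry no weight as support. Of 11 other interstitial collagens 6 passed and 5 were higher, among them Col15a1 (log2 ratio 4.23), Col5a2 (2.74) and Col5a1 (2.48), while Col12a1 was lower (-1.03). Of 7 small proteoglycans 3 passed and were higher, with Fmod (fibromodulin) at 3.46 (2.19 to 6.15), Prelp at 2.81 and Vcan (versican) at 2.18. Among matricellular genes Postn (periostin) was higher at 5.40 (3.82 to 11.65, from 95 UMIs against 1) and Thbs1 lower at -2.06. Prrx2, the paralogue of Prrx1, was at 3.72 (2.47 to 6.40), and Heyl, a target of Notch signalling, at 2.67. Of 13 junction and keratin genes 11 passed, with 8 lower and none higher, with Krt19 at -3.80, Cldn4 at -3.46 and Cdh1 (E-cadherin) at -1.10. Of 7 pericyte and smooth muscle genes 4 passed and were higher, from 1.01 (Rgs5) to 1.63 (Tagln), and of 10 TGF-beta genes 5 passed, of which Tgfb2 (2.56) and Tgfb3 (2.01) were higher and Tgfbi (-1.46) lower. Pericyte and smooth muscle genes, summed over the list, had 3112 CPM in fl/fl and 3205 CPM in +/fl cells with 5 to 10 genes, against 1509 and 1080 CPM in cells with none and 154 and 37.0 CPM in the fibroblast-like cluster. The part of pericytes in these cells was not tested.

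Between the genotypes, the 10 genes were lower in the fl/fl library, most of all Prrx1, Col3a1 and Zeb2. Over all kept cells Prrx1 had 2.51 CPM in the fl/fl library and 24.1 CPM in the +/fl library (log2 ratio of fl/fl over +/fl with 1 CPM added, -2.84), Col3a1 11.7 and 54.0 CPM (-2.12), and Zeb2 6.28 and 26.7 CPM (-1.93). Col1a2 (9.15 and 20.9 CPM, -1.11) and Dcn (80.7 and 164 CPM, -1.02) were also lower by at least 2-fold. Fbn1 (-0.93), Sparc (-0.64), Lum (-0.62) and Col1a1 (-0.55) were lower by less, and Bgn (9.17 and 9.73 CPM, -0.08) was nearly level. In all, 5 of 10 were lower by at least 2-fold, where 2.43% of 18392 genes were lower and 10.2% higher, and the median of the 10 was -0.97 against 0.04 over all genes. The 10 genes were selected on their counts in these same cells, so this count and median carry no weight as support. The clusters rich in these genes were not equally large: cluster 7 was 4.03% of fl/fl and 8.65% of +/fl cells. The unnamed epithelial cluster richest in these genes had the other direction in some clusterings. It held 7.17% and 5.44% with the matrix gene lists left out and 12.7% and 2.72% with the libraries clustered apart. These clusters were not matched to cluster 7 by their cells and can hold other cells. Fibroblast-like cells were 0.0782% of fl/fl (0.0287 to 0.170) and 0.266% of +/fl cells (0.142 to 0.454). Mesothelial-like cells were 0.156% of fl/fl (0.0809 to 0.273) and 0.388% of +/fl cells (0.234 to 0.606). Both shares were lower in fl/fl, from few cells, and an overlap of their intervals does not make them equal. Tuft markers moved with the 10 genes, with 7 of 9 lower in fl/fl by at least 2-fold (median -1.44), and their part in the result was not tested.

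With the non-epithelial clusters left out, 3 of the 10 genes stayed lower in fl/fl by at least 2-fold (Prrx1 -2.98, Col3a1 -2.60 and Zeb2 -2.34), where 2.66% of 18241 genes did. For the same reason that count of 3 carries no weight as support. Col1a2 then had 2.12 CPM in fl/fl and 1.71 CPM in +/fl epithelium (0.20) and was no longer lower in fl/fl. Col1a1 (6.90 and 4.46 CPM, 0.53) and Bgn (6.99 and 5.55 CPM, 0.29) were slightly higher in fl/fl epithelium, and Sparc was near level (50.4 and 55.0 CPM, -0.12).

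**Figure D5:**
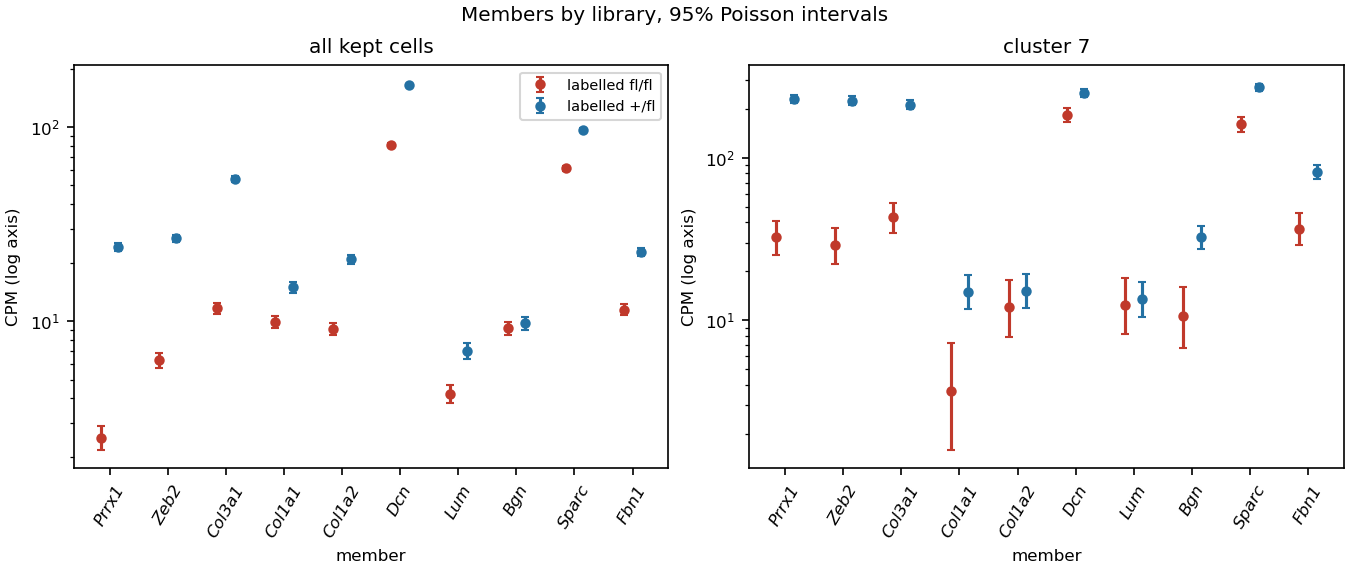
CPM of each of the 10 genes in the fl/fl library (red, left of each pair) and the +/fl library (blue, right), over all kept cells and over cluster 7, on a log axis with 95% Poisson intervals as bars. The gap is widest for Prrx1, Zeb2 and Col3a1 in cluster 7, and the intervals of Col1a2 and Lum overlap there.

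Within cluster 7 every one of the 10 genes had a lower level in fl/fl than in +/fl cells, and 6 were lower by at least 2-fold, where 2.35% of 9061 genes were lower and 2.09% higher. Zeb2 had a log2 ratio of -2.91 (-3.34 to -2.58), Prrx1 of -2.80 (-3.20 to -2.49) and Col3a1 of -2.28 (-2.63 to -2.00). Col1a1 (-1.77), Bgn (-1.53) and Fbn1 (-1.14) followed, and Sparc (-0.75), Dcn (-0.43), Col1a2 (-0.32) and Lum (-0.11) differed by less. The median of the 10 was -1.34, against 0.02 over all genes of the cluster. Both the 10 genes and cluster 7 were chosen on the levels of these genes in these cells. The count of 6 and this median therefore carry no weight as support. Tuft markers, of a chemosensory epithelial cell type, moved the same way: 5 of 7 were lower by at least 2-fold (median -1.83), and the 9 listed summed to 109 CPM in fl/fl and 274 CPM in +/fl cells. The same sum was 261 and 310.4 CPM in myeloid-like cluster 9, and its part in the result was not tested. The deepest fl/fl cell described above holds much of this library's structural matrix in the cluster: without it fl/fl cells of cluster 7 had 1.87 CPM of Col1a1, 3.73 CPM of Col1a2, 4.2 CPM of Lum and 5.60 CPM of Bgn, while Prrx1 (31.7 CPM) and Zeb2 (28.9 CPM) hardly moved. At equal depth, thinned to 2000 UMIs per cell, Prrx1 was found in 4.58% of fl/fl cells (2.52 to 7.56) and 27.0% of +/fl cells (22.8 to 31.5), and Zeb2 in 4.58% and 26.7% (22.6 to 31.2). Dcn was found in 18.6% of thinned fl/fl cells and 25.3% of +/fl cells, and its intervals (14.4 to 23.5 and 21.2 to 29.7) overlapped. Cells with at least 3 of the genes were 16 of 306 thinned fl/fl cells and 80 of 423 thinned +/fl cells of the cluster, and 13.3% and 51.5% of its cells without thinning.

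Prrx1 was also lower in fl/fl in other clusters, most of them at a low level. Over 14 clusters, non-epithelial ones included, with at least 20 cells in each library, Prrx1 was lower in fl/fl in 13, in 9 of them with an interval that left out 0. Zeb2 was lower in 11 (9 with such an interval) and higher with such an interval in 1, and Fbn1 was lower in 11 (7). Cells that should lack Prrx1 had the same direction, with 0.461 CPM in fl/fl and 3.36 CPM in +/fl cells of myeloid-like cluster 9. T-lineage-like cells had 0 and 4.41 CPM. The source of these low levels was not tested. In immature mTEC-like cluster 3 Prrx1 had 6.05 CPM in fl/fl and 24.6 CPM in +/fl cells, and in the cycling-like cluster 2.06 and 19.6 CPM. The +/fl levels of both lay above those of myeloid-like cluster 9 and of T-lineage-like cells. In the 6 fl/fl fibroblast-like cells it had 376 CPM, against 336 CPM in the 13 +/fl ones. Col1a2 was lower in 7 of the 14 clusters and in none with an interval that left out 0.

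Other matrix genes of cluster 7 differed between the libraries in both directions. Of 9 other interstitial collagens, 2 were lower in fl/fl by at least 2-fold, Col15a1 (-2.03) and Col5a1 (-1.04), and none was higher. Of the 7 listed small proteoglycans 3 had enough UMIs, and Fmod (-1.14) and Prelp (-1.34) were lower. Of 6 elastic-fibre genes 2 were lower, Mfap2 (-1.17) and Ltbp3 (-1.12), and Fbln1 (1.11) was higher. Of 7 matricellular genes none was lower, and Thbs1 (1.24) and Sparcl1 (1.21) were higher. None of 12 basement-membrane genes passed 2-fold in either direction, 1 of 11 collagen-processing genes was lower, and of 5 mesenchymal factors Prrx2 (-2.33) and Heyl (-1.32) were lower. The 6 immature mTEC markers all stayed under 2-fold, and of 12 junction and keratin genes only Cldn3 (1.23) passed it (median of the list 0.35). Of 6 pericyte and smooth muscle genes, Myh11 (1.43) was higher and Notch3 (-1.21) lower. Among all genes of the cluster, the highest and lowest ratios included the Y- and X-linked Ddx3y (78.9 CPM in fl/fl, 0 UMIs in +/fl) and Xist (0.461 and 1264 CPM). Of the others, Chil4 (280 and 1.48 CPM) and Krt15 (83.5 and 3.59 CPM) were higher and Fxyd7 (6.46 and 152 CPM) and Il33 (7.84 and 52.6 CPM) lower in fl/fl.

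The genes whose levels were most like the mean of the 10 over 32 sums of cluster and library, by Pearson's r, were Fxyd1 (0.91), Arsj (0.88), Gm26523 (0.87), Creb5 (0.86) and Ror2 (0.84). The sums share libraries and depth, so these are a description. Among the 10 genes the closest pairs were Lum and Fbn1 (r = 0.81), Col3a1 and Fbn1 (0.78) and Col3a1 and Lum (0.76), and the least alike Zeb2 and Sparc (-0.14). Zeb2 and Epcam had r = -0.51 over the same sums.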

How the data were processed

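The deposited matrices hold UMI counts per gene and barcode for the 2 libraries, written by Cell Ranger per the file headers (software version 3.1.0); Seurat is also named in the submitters' processing notes, and the genome build is not given in the sources used here. The counts are not normalized. Barcodes passed with 500 genes and 1000 UMIs or more and a mitochondrial share up to 15% (8208 of 11095 in the fl/fl library and 5099 of 7304 in the +/fl library). Scrublet's own threshold marked under 0.5% of barcodes, so the top scores were removed at 0.8% per 1000 cells, 539 fl/fl and 208 +/fl cells. Kept cells held 80897462 UMIs in the fl/fl library and 66675011 in the +/fl library. They were clustered with scanpy 1.11.5 (2000 variable genes without the 10 genes, 30 principal components, 15 neighbours, Leiden resolution 1, leidenalg 0.10.2). A cluster was called like a cell type where 3 or more of its markers were detected in 10% of the cluster's cells, with 2-fold the level of the other clusters. CPM is a gene's summed UMIs over the total of the same cells, scaled as usual, ratios are log2 with 1 CPM added, and genes needed at least 50 UMIs over both sides. Intervals of ratios are exact binomial ones from the UMI counts of both sides, without the added CPM. At low counts a ratio can therefore lie off the centre of its interval or outside it. Counts of clusters with an interval that left out 0 use these intervals. Shares were also taken after thinning each cell to 2000 UMIs, since depth differs between the libraries. Genes outside the lists were named if they had at least 50 CPM on either side and were among the 10 highest or lowest ratios between cell groups, the 6 highest or lowest between libraries, or the 10 closest by correlation. Genotype was not tested, and edgeR 4.0.16 served only for TMM factors. The ratio code was tested on simulated data. The 10 genes, the lists and the markers were chosen with earlier results of these data known. Python 3.11.15, numpy 2.4.6, scipy 1.17.1, pandas 2.3.3, matplotlib 3.10.9 and R 4.3.3 were used.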

Additional observations from a re-analysis of the deposited data

Results flagged for a closer look

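Col1a1, Bgn and Sparc differed in opposite directions between the libraries in cluster 7 and in the other epithelial clusters. Col1a1 had a log2 ratio of fl/fl over +/fl of -1.77 in cluster 7 and 0.81 in the other epithelial clusters, Bgn of -1.53 and 0.89, and Sparc of -0.75 and 0.35. Each value rests on 1 library per genotype, and the differences between these ratios were not tested. For Col1a1 the cluster 7 value rests on 8 fl/fl UMIs, and the other clusters held 6.99 CPM in fl/fl and 3.57 CPM in +/fl. Aire-stage-like cluster 1, with 1444 fl/fl and 14 +/fl cells, held 47.7% of the Col1a1 and 55.7% of the Bgn UMIs of the fl/fl library, so the mix of clusters differs between the libraries.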

How the results depend on the processing

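The number of the 10 genes lower in fl/fl by at least 2-fold, 5 as reported, was 3 over all deposited barcodes, 3 with 5 CPM added and 3 in epithelial clusters alone. Of 80 gene ratios under alternatives 77 stayed negative; Col1a2 turned to 0.20 in epithelial clusters. The log2 ratio of the share of cells with at least 3 of the genes, -2.16, was -1.30 with at least 2 genes. Epcam in these cells, 95.3% in fl/fl and 94.5% in +/fl, was 88.8% and 88.0% with at least 2 Epcam UMIs, 81.2% and 85.5% with at least 5 genes, and 40.8% and 50% thinned. In each other clustering, the unnamed cluster at an epithelial Epcam level with the highest summed level of the 10 genes was taken. It was not matched to cluster 7 by its cells. Its share, 4.03% of fl/fl and 8.65% of +/fl cells for cluster 7, depended on the clustering: 0.274% and 3.62% with the 10 genes kept among the variable genes, 7.17% and 5.44% with the gene lists also left out, 19.8% and 22.4% at resolution 0.5, 3.39% and 7.18% at resolution 2, and 12.7% and 2.72% with the libraries clustered apart. The cause was not tested. No paired analysis was possible because each genotype has 1 library. Replicates are lacking, depth limits genes with few UMIs per cluster, and genotype and sex cannot be told apart.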

Other observations

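Dcn was also found in a small cluster of ionocyte-like cells that appeared at resolution 2, with 41 fl/fl and 3 +/fl cells. It had 767 CPM (681 to 862) in the fl/fl cells and 316 CPM (136 to 623) in the +/fl cells, and was found in 36.6% and 33.3% of them. With the 10 genes kept among the variable genes, a cluster of 21 fl/fl and 177 +/fl cells formed that held all fibroblast-like cells together with 13 fl/fl and 147 +/fl cells of cluster 7. Cells with at least 5 of the genes were also present among barcodes left out, 4 fl/fl and 17 +/fl among those removed as doublets, and 1 fl/fl and 15 +/fl among those that failed the filters.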
